A study of Homo sapiens with 12 samples.

Results

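Genes that read out or restrain signalling through the ERK branch of the MAPK cascade were followed in human erythroleukemia cells that had regrown after chemotherapy. The 10 members were DUSP4, DUSP5, DUSP6, SPRY2, SPRY4, SPRED1, SPRED2, ETV4, ETV5 and PHLDA1, and each was found once, by its gene symbol, among the 26481 genes of the count table. RNA was sequenced from 12 bulk libraries of HEL (HEL 646C in the labels), an established acute myeloid leukemia line of erythroid character, here carrying a library of DNA barcodes. The 2 NT libraries came from cells kept in solvent (DMSO) without drug. The relapses were cultures that regrew to their seeded cell number over about a month, after an exposure of about 72 h and removal of dead cells by density gradient. The Doxo relapses (n = 3) had received doxorubicin at 1.8 µM, an anthracycline that poisons topoisomerase II. The Doxo+Cyta relapses (n = 3) had received the same doxorubicin with cytarabine at 6 µM, a nucleoside analog that stops DNA synthesis. The Doxo+Cyta+DAC relapses (n = 4) had received both drugs at those doses with decitabine (DAC) at 0.1 µM, which inhibits DNA methylation. All groups shared the same barcoded line, and each relapse library holds whichever clones survived in that culture. In such bulk libraries, fewer cells of a kind and less RNA per cell cannot be told apart.

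ERK is the last kinase of a relay that runs from RAS through RAF and MEK, and in erythroid and megakaryocytic cells it is driven by cytokine receptors, KIT and JAK2. Active ERK switches on a set of early genes, among them the ETS factors ETV4 and ETV5, and also the genes that damp it. The nuclear phosphatases DUSP4 and DUSP5 and the cytoplasmic phosphatase DUSP6 remove the phosphates from the activation loop of ERK, while Sprouty (SPRY) and Spred proteins act upstream, at the level of RAS and RAF. The mRNA of these genes is widely used as a proxy for ERK output, although each of them also has other inputs.

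Promoter sequence is shown for PHLDA1, SPRED1 and SPRED2, 3 members that were higher with decitabine in every comparison involving it. It is also shown for DUSP6, a common single-gene proxy of ERK output, because the DUSP6 window holds the only motif match. Each window is the 250 bases before the annotated start, on the coding strand, from RefSeq on GRCh38.p14, at chr12:76031777-76032026 (minus strand) for PHLDA1, chr15:38252586-38252835 (plus strand) for SPRED1, chr2:65432600-65432849 (minus strand) for SPRED2 and chr12:89352502-89352751 (minus strand) for DUSP6.
PHLDA1: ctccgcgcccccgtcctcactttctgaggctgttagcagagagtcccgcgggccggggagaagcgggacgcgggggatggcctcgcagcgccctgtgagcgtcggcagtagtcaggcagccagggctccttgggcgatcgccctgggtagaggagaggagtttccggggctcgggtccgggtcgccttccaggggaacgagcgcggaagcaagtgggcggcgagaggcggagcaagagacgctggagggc
SPRED1: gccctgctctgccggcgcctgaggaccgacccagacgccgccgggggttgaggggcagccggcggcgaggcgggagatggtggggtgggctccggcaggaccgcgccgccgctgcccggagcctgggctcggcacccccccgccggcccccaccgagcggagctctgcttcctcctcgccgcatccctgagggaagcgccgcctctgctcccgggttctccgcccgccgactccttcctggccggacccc
SPRED2: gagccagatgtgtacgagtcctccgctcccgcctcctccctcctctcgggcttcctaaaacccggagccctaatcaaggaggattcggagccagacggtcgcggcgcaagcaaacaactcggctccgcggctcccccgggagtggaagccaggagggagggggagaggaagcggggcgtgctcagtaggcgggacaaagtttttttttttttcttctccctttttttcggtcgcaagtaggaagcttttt
DUSP6: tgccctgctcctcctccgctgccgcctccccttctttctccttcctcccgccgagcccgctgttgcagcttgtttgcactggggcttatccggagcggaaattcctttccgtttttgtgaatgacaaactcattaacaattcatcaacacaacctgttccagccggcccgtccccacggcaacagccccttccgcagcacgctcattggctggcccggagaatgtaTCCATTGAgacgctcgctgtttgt
The capitals in the DUSP6 window mark TCCATTGA, 24 bases before the start, which is the reverse complement of TCAATGGA, a letter string preferred by the ERK-regulated repressor CIC. Windows were found for 6 of the 10 members, 9 windows in all, and no window was listed for DUSP4, DUSP5, ETV4 or ETV5. The letters searched, on both strands, were TGAATGAA, TGAATGGA, TCAATGAA and TCAATGGA for CIC, CCGGAAGT and CAGGAAGT for ETS factors, TGACTCA (whose reverse complement is TGAGTCA) for AP-1 and TGACGTCA for CREB, and the searched strings do not contain one another. The CIC letters occurred in 3.18% of the 35116 windows of the same length, the ETS letters in 5.89%, the AP-1 letters in 4.20% and the CREB letters in 1.65%. Among the members' windows the DUSP6 match was the only one. In the annotation used for counting, DUSP6 starts farther upstream (chr12:89347825-89352859), and the DUSP6 window lies within that span. The SPRY4 window also lies within the counted SPRY4 span. CG dinucleotides, the site of DNA methylation, numbered 26 in the PHLDA1 window, 30 in the SPRED1 window, 19 in the upstream SPRED2 window and 16 in the DUSP6 window, against a median of 11 over all windows. The second SPRED2 window held 3, the SPRY2 windows 23, 13 and 5, and the SPRY4 window 22. DNA methylation was not measured in these libraries, and any tie of these CG numbers to the changes in expression was not tested.

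Counts per library ranged from 12763582 to 19106235. Expression is given as CPM (counts per 1000000 of the TMM-scaled total, on which 3 counts come to 0.154 to 0.238 CPM), with the mean ± SD of a group. Fold changes, standard errors and p-values come from edgeR's quasi-likelihood test on the 14164 genes that passed its filter on low counts, with Benjamini-Hochberg adjustment over all of them, and a gene was called at an adjusted p under 0.05. Of the members, 9 were tested, and SPRY4 was too low. The labels speak of biological replicates without saying how the cultures were kept apart, so p-values measure the spread between these libraries. Doxo 4 and Doxo+Cyta 20 stood apart from their groups: their root-mean-square log2 difference from the other libraries of the group, over all tested genes, was 0.52 to 0.58, against 0.30 between Doxo 5 and Doxo 6 and 0.36 between Doxo+Cyta 19 and Doxo+Cyta 22. Within NT it was 0.29, and within Doxo+Cyta+DAC it was 0.41 to 0.51 for every pair of libraries. Libraries carry the number given in their labels. Where libraries of groups are said not to overlap, the share of all tested genes that separate likewise was not counted. The line's identity was checked on its markers: all 12 erythroid markers exceeded 1 CPM in every library. Their summed level was 7950 to 9000 CPM in NT, 9030 to 9960 in Doxo, 9640 to 11000 in Doxo+Cyta and 6510 to 9330 in Doxo+Cyta+DAC. Against NT, GATA1 (172 to 194 against 266 to 294 CPM), KLF1, TAL1 and EPOR were lower in every Doxo+Cyta+DAC library. GYPB (34 to 42.4 against 22.8 to 23.3 CPM), HBA1 and HBA2 were higher in every one, and the other erythroid markers overlapped. Of 6 megakaryocyte markers, 5 exceeded 1 CPM in every library, PF4 being at or near 0. Their summed level was 1710 to 2180 CPM in NT, Doxo and Doxo+Cyta against 1140 to 1440 CPM in Doxo+Cyta+DAC. Most of this sum was ITGA2B (group means of 1350 to 1470 against 975 CPM). GP1BA went the other way, from a mean of 31.6 CPM in NT to 60.2 CPM in Doxo+Cyta+DAC, and ITGB3 overlapped between NT and Doxo+Cyta+DAC (125 to 166 and 96.2 to 140 CPM). Among markers of other blood cells, CD3D, CD3E, CD3G, MS4A1 and PAX5 were at or near 0, whereas CD2 was present at 26.9 to 50.5 CPM (group means) and CD79A at 1.37 to 4.53 CPM. Monocyte and stromal markers summed to at most 2.21 and 1.47 CPM. The part of these marker differences in the results that follow was not tested.

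Per kilobase of exon, DUSP6 was the most abundant member (19.3 CPM per kb, mean over the 4 groups), followed by ETV4 (14), ETV5 (11.3), SPRED2 (9.48), SPRY2 (8.65), SPRED1 (8.28), DUSP5 (5.79), PHLDA1 (3.03), DUSP4 (0.606) and SPRY4 (0.0279). Each member's range over the 12 libraries overlapped that of its neighbour in this order, with the exception of SPRY4 (0 to 0.112 CPM per kb), which lay below DUSP4 (0.349 to 0.991). Among the 9 tested members the order by change between groups was a different one. The highest group mean exceeded the lowest 9.89-fold for PHLDA1, 3.30-fold for DUSP5, 2.87-fold for SPRED1, 2.32-fold for ETV5, 2.29-fold for SPRED2 and 2.06-fold for DUSP4, but only 1.77-fold for ETV4, 1.51-fold for SPRY2 and 1.43-fold for DUSP6. The most abundant member thus varied least between group means, while the range over single libraries was wide (11 to 36.6 CPM per kb).

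**Figure D1:**
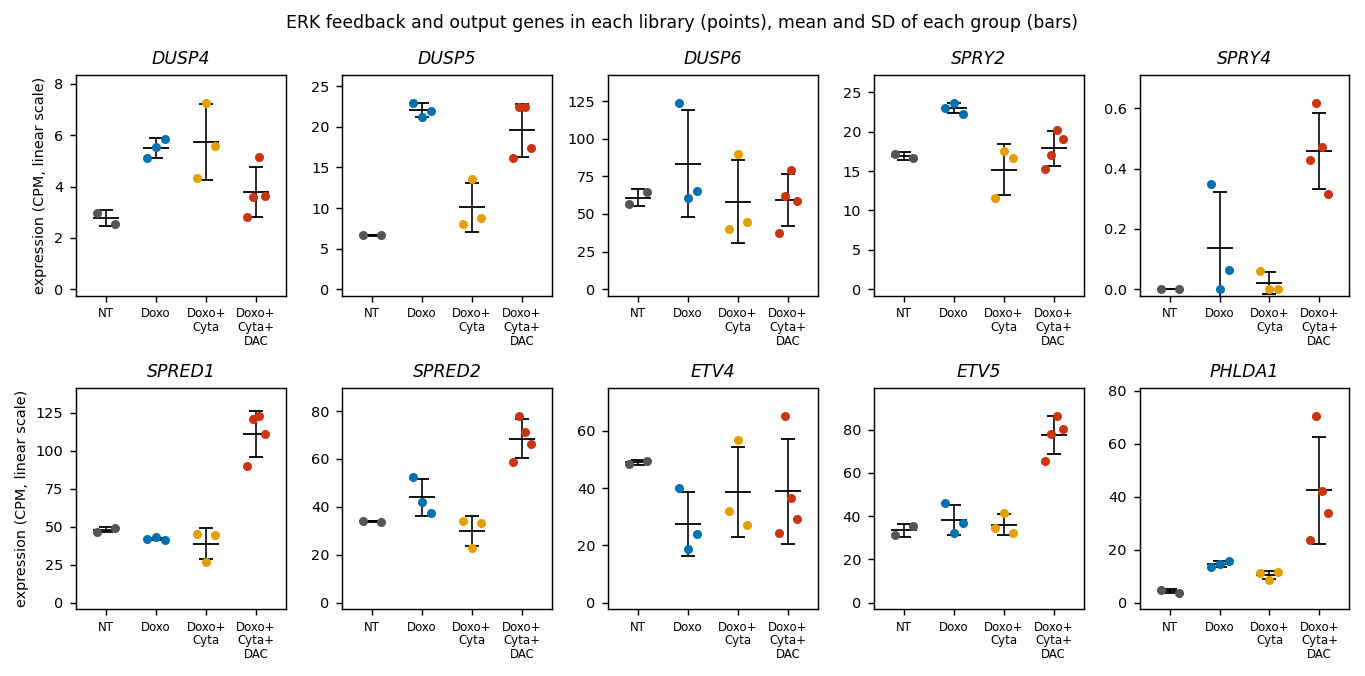
Expression of the 10 members in CPM (linear scale, a separate axis for each gene) in each of the 4 groups. Points are libraries and bars the mean and SD of a group. In SPRED1, SPRED2, ETV5 and PHLDA1 all 4 Doxo+Cyta+DAC libraries lie above every other library. DUSP6 overlaps between all groups, and ETV4 between all but NT and Doxo. Such separation was not counted over all tested genes. The 24.9% of them called higher in Doxo+Cyta+DAC over NT is a different measure.

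Of the phosphatases, DUSP5 and DUSP4 were called in at least 1 comparison and DUSP6 in none, and differences between these genes were not tested. DUSP5 (chr10:110497867-110511544, GRCh38) was expressed at 6.64 and 6.73 CPM in NT, at 23.0, 21.2 and 21.9 CPM in Doxo, at 8.10, 13.6 and 8.74 CPM in Doxo+Cyta and at 16.2, 22.4, 22.5 and 17.4 CPM in Doxo+Cyta+DAC. All Doxo and all Doxo+Cyta+DAC libraries stood above the NT and Doxo+Cyta libraries, with no overlap. DUSP5 was 3.30-fold higher in Doxo than in NT (log2 1.72 ± 0.23 SE, adjusted p = 0.000921) and 2.94-fold higher in Doxo+Cyta+DAC than in NT (log2 1.56 ± 0.22, adjusted p = 8.7e-05). The relapse after doxorubicin and cytarabine lay between: it exceeded NT by 0.60 on the log2 scale (± 0.23, adjusted p = 0.166), which did not pass, and was lower than Doxo+Cyta+DAC by 0.96 (log2 fold change -0.96 ± 0.18, adjusted p = 0.000505). Doxo exceeded Doxo+Cyta by 1.12 (± 0.19, adjusted p = 0.00734). That call was lost when only these 2 groups were fitted (adjusted p = 0.0578) or without Doxo+Cyta 19 (adjusted p = 0.0513). Between Doxo and Doxo+Cyta+DAC the difference in DUSP5 was 0.17 with a 95% interval from -0.21 to 0.54.

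DUSP4 (chr8:29333062-29350750), an inducible nuclear phosphatase, was the lowest of the tested members per kilobase, with 43 to 109 counts per library. It was present at 2.98 and 2.56 CPM in NT, 5.10, 5.53 and 5.87 CPM in Doxo, 4.33, 7.27 and 5.56 CPM in Doxo+Cyta and 2.82, 3.58, 5.14 and 3.64 CPM in Doxo+Cyta+DAC. All Doxo and Doxo+Cyta libraries exceeded both NT libraries, whereas the Doxo+Cyta+DAC libraries overlapped with NT. The increase in Doxo over NT was 1.98-fold (log2 0.98 ± 0.28, adjusted p = 0.04), and it lost its call without NT 1, NT 2, Doxo 5 or Doxo 6 (adjusted p of 0.117 to 0.252). The change in Doxo+Cyta over NT was of similar size, 2.05-fold (log2 1.04 ± 0.28), with an adjusted p = 0.0766. DUSP4 was 1.5-fold higher in Doxo+Cyta than in Doxo+Cyta+DAC (log2 0.58 ± 0.23, adjusted p = 0.038). The libraries overlapped, and the call was lost without Doxo+Cyta 20 (0.38, adjusted p = 0.177), Doxo+Cyta 22, Doxo+Cyta+DAC 30, 31 or 33 (adjusted p of 0.0649 to 0.105 for the latter 4).

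DUSP6 (chr12:89347825-89352859) was called in none of the 6 comparisons. Its level was 56.7 and 64.9 CPM in NT, 124, 60.5 and 65.5 CPM in Doxo, 39.8, 89.9 and 44.7 CPM in Doxo+Cyta and 37.3, 62.0, 79.3 and 58.6 CPM in Doxo+Cyta+DAC. The highest values were those of Doxo 4 and Doxo+Cyta 20, the libraries that stood apart. Against NT, the log2 difference and its 95% interval were 0.45 (-0.35 to 1.26) in Doxo, -0.07 (-0.86 to 0.73) in Doxo+Cyta and -0.04 (-0.79 to 0.72) in Doxo+Cyta+DAC. All of these intervals span 0.

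Among the upstream inhibitors, both Spred genes were called higher with decitabine and SPRY2 was not, a difference between genes that was not tested itself. SPRED1 (chr15:38252851-38357249), a membrane-bound RAS pathway inhibitor that brings the RAS GTPase activator NF1 to the membrane, was at 46.8 and 49.1 CPM in NT, at 42.0, 42.9 and 41.5 CPM in Doxo, at 45.3, 26.7 and 44.6 CPM in Doxo+Cyta and at 90.2, 121, 123 and 111 CPM in Doxo+Cyta+DAC. Its paralog SPRED2 (chr2:65310851-65432522) was at 34.1 and 33.7 CPM in NT, 52.4, 42.1 and 37.4 CPM in Doxo, 33.9, 22.6 and 33.1 CPM in Doxo+Cyta and 58.7, 78.0, 71.2 and 66.2 CPM in Doxo+Cyta+DAC. For both genes the 4 Doxo+Cyta+DAC libraries were the highest of the 12. SPRED1 rose 2.32-fold over NT in Doxo+Cyta+DAC (log2 1.21 ± 0.19, adjusted p = 0.000204) and SPRED2 2.02-fold (log2 1.01 ± 0.18, adjusted p = 0.000549). Doxo+Cyta without decitabine was lower than Doxo+Cyta+DAC in SPRED1 by a factor of 2.86 (log2 -1.52 ± 0.17, adjusted p = 4.67e-06) and in SPRED2 by a factor of 2.29 (log2 -1.2 ± 0.16, adjusted p = 2.43e-05). Doxo was likewise lower than Doxo+Cyta+DAC, by log2 -1.40 ± 0.17 for SPRED1 (adjusted p = 1.07e-05) and by log2 -0.64 ± 0.16 for SPRED2 (adjusted p = 0.00314). In Doxo and in Doxo+Cyta neither Spred gene was called against NT.

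SPRY2 (chr13:80335977-80340951), an inducible inhibitor that acts on receptor tyrosine kinase signalling to RAS and RAF, varied over a narrow range. It was at 17.2 and 16.6 CPM in NT, 23.0, 23.7 and 22.3 CPM in Doxo, 11.6, 17.6 and 16.6 CPM in Doxo+Cyta and 15.3, 17.0, 20.2 and 19.1 CPM in Doxo+Cyta+DAC. The 3 Doxo libraries were the highest of the 12. The call was made only against Doxo+Cyta+DAC (log2 0.36 ± 0.15, adjusted p = 0.0491), and it was lost in 6 of 7 fits that each left out 1 of the libraries compared (adjusted p of 0.0577 to 0.132 in those). Against NT the Doxo difference was 0.45 ± 0.18 (adjusted p = 0.124) and against Doxo+Cyta 0.60 ± 0.16 (adjusted p = 0.0601). In Doxo+Cyta+DAC over NT the SPRY2 difference was 0.08, with a 95% interval from -0.29 to 0.45, whose upper bound lies under the lower bounds of the Spred increases in the same comparison (0.80 for SPRED1 and 0.62 for SPRED2).

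SPRY4 (chr5:142310427-142325055), the other Sprouty gene, was barely detected. It had 0 counts in both NT libraries, 5, 0 and 1 counts in Doxo, 1, 0 and 0 counts in Doxo+Cyta and 7, 9, 9 and 4 counts in Doxo+Cyta+DAC. Every Doxo+Cyta+DAC library held SPRY4 fragments, at 0.317 to 0.619 CPM, and every NT library and all but 1 Doxo+Cyta library held none. Taking 3 counts per NT library as the level that a count of 0 allows, SPRY4 was at least 2.76-fold higher in Doxo+Cyta+DAC than in NT. Per scaled fragment, the 29 counts of Doxo+Cyta+DAC stood 22.0-fold above the 1 count of Doxo+Cyta (95% exact binomial interval 3.65 to 900) and 3.66-fold above the 6 counts of Doxo (1.49 to 10.8). These intervals cover counting error only, and fragments without molecular identifiers are not independent molecules. When no filter on low counts was applied, edgeR gave SPRY4 an adjusted p = 0.00383 for Doxo+Cyta+DAC over NT and 0.00292 for Doxo+Cyta against Doxo+Cyta+DAC. Doxo against Doxo+Cyta+DAC did not pass in that edgeR fit (adjusted p = 0.0688), and the SPRY4 levels of their libraries overlapped. SPRY4-IT1, a noncoding gene annotated within the SPRY4 span, shared no exon bases with it and had 0 counts in every library.

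The paired ETS factors ETV4 and ETV5, both of the PEA3 family and both targets of CIC, differed in their calls, and the difference between them was not tested. ETV5 (chr3:186046317-186109112) was at 31.3 and 35.6 CPM in NT, 45.9, 32.0 and 36.7 CPM in Doxo, 34.4, 41.4 and 32.1 CPM in Doxo+Cyta and 65.4, 78.1, 86.4 and 80.1 CPM in Doxo+Cyta+DAC. ETV4 (chr17:43527843-43546432) was at 48.4 and 49.5 CPM in NT, 40.2, 18.7 and 23.9 CPM in Doxo, 32.0, 56.7 and 27.3 CPM in Doxo+Cyta and 24.3, 65.3, 36.6 and 29.2 CPM in Doxo+Cyta+DAC. The Doxo+Cyta+DAC libraries held the 4 highest ETV5 values, whereas their ETV4 values covered nearly the whole range of the series. ETV5 rose 2.32-fold in Doxo+Cyta+DAC over NT (log2 1.21 ± 0.17, adjusted p = 7.77e-05). It was 2.15-fold lower in Doxo+Cyta (log2 -1.11 ± 0.15, adjusted p = 2e-05) and 2.03-fold lower in Doxo (log2 -1.02 ± 0.15, adjusted p = 4.4e-05) than in Doxo+Cyta+DAC. ETV4 was called nowhere, with a Doxo+Cyta+DAC difference from NT of -0.33 (95% interval -1.13 to 0.47), whose upper bound lies under the lower bound of the ETV5 change (0.85). All 3 Doxo libraries were below NT for ETV4 (log2 -0.83 ± 0.40, adjusted p = 0.187). Without Doxo 4 alone this became -1.23 with an adjusted p = 0.0491, and without both libraries that stood apart the adjusted p was 0.0132.

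PHLDA1 (chr12:76025447-76031776), a pleckstrin-homology protein induced by growth factors through ERK, showed the widest differences between group means of the 9 tested members. It was at 4.84 and 3.75 CPM in NT, 13.5, 14.6 and 15.7 CPM in Doxo, 11.3, 8.54 and 11.5 CPM in Doxo+Cyta and 23.5, 70.6, 42.0 and 33.7 CPM in Doxo+Cyta+DAC. The levels formed 3 tiers without overlap, NT lowest, the relapses without decitabine in the middle and those with decitabine highest, and the decitabine group was also the most spread (mean 42.5 ± 20.2 CPM). PHLDA1 was 9.84-fold higher in Doxo+Cyta+DAC than in NT (log2 3.30 ± 0.38, adjusted p = 1.78e-05). It rose 3.38-fold in Doxo over NT (log2 1.76 ± 0.37, adjusted p = 0.0115), a call lost without NT 1 (adjusted p = 0.101) or NT 2 (adjusted p = 0.132), and stood 2.43-fold higher in Doxo+Cyta (log2 1.28 ± 0.37, adjusted p = 0.0913), which did not pass. Compared with Doxo+Cyta+DAC it was lower by log2 -2.02 ± 0.29 in Doxo+Cyta (adjusted p = 4.72e-05) and by -1.54 ± 0.29 in Doxo (adjusted p = 0.000386). Between Doxo and Doxo+Cyta the difference was 0.48 (95% interval -0.18 to 1.13).

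**Figure D2:**
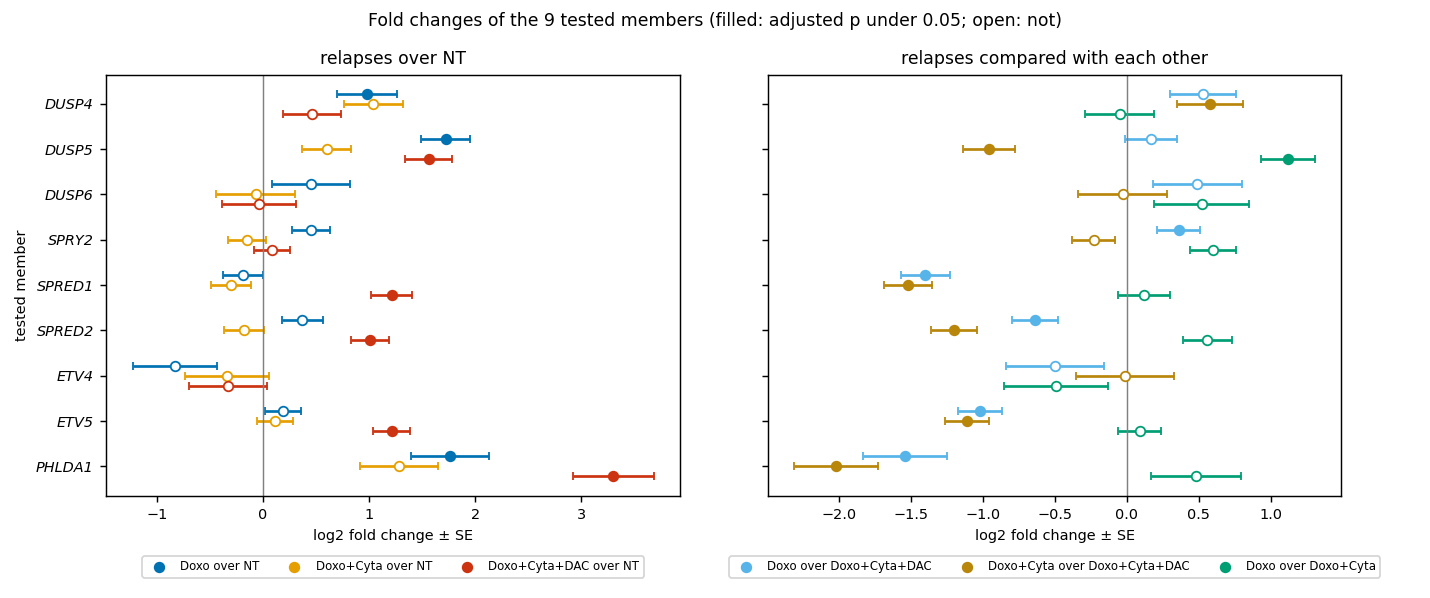
Log2 fold changes (points) ± SE (bars) of the 9 tested members, for each relapse over NT (left) and between relapses (right). Filled points passed an adjusted p under 0.05. PHLDA1 lies farthest from 0 in Doxo+Cyta+DAC over NT (3.30), and DUSP6 and ETV4 have open points throughout.

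Counted over the members, Doxo over NT had 3 of 9 tested members higher (DUSP4, DUSP5, PHLDA1) and 0 lower, where 6.06% of all tested genes were higher and 4.63% lower. The median log2 fold change of the members was 0.45, against 0.01 over all tested genes. Doxo+Cyta+DAC over NT had 5 of 9 higher (DUSP5, SPRED1, SPRED2, ETV5, PHLDA1) and 0 lower, in a comparison in which 24.9% of all genes were higher and 23.7% lower. The member median there was 1.01 against 0.02. In Doxo+Cyta over NT no tested member was called by edgeR, where 0.911% of all genes were higher and 0.551% lower, and the member median was -0.07 against 0.01. At an unadjusted p under 0.05, 3 members (DUSP4, DUSP5, PHLDA1) were higher there, and DESeq2 called 2 (DUSP4 and PHLDA1). DUSP5 and PHLDA1 were the members called in both Doxo and Doxo+Cyta+DAC, but these comparisons share the NT libraries and are given side by side without a test of the overlap.

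Between relapses, Doxo over Doxo+Cyta+DAC had 1 member higher (SPRY2) and 4 lower (SPRED1, SPRED2, ETV5, PHLDA1), where 30.4% of all genes were higher and 29.1% lower. Doxo+Cyta over Doxo+Cyta+DAC, the pair that differs by decitabine alone, had 1 higher (DUSP4) and 5 lower (those 4 and DUSP5), where 30.5% of all genes were higher and 29.8% lower. The member medians were -0.50 and -0.96, against 0.01 and 0.00 over all tested genes. SPRED1, SPRED2, ETV5 and PHLDA1 were higher with decitabine in each of the 3 comparisons that involve it, which share the Doxo+Cyta+DAC libraries. The share of all tested genes called higher with decitabine in all 3 was not counted. Doxo over Doxo+Cyta, the pair that differs by cytarabine, had DUSP5 alone higher, where 2.32% of all genes were higher and 1.07% lower. DESeq2 also called SPRY2 (adjusted p = 0.0115) and SPRED2 (adjusted p = 0.0397) higher in that pair.

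Several members deviated together in the same libraries. In Doxo 4, DUSP6 stood 0.65 above its group mean on the log2 CPM scale, ETV4 0.62, ETV5 0.28 and SPRED2 0.26, while DUSP4, SPRY2 and SPRED1 stayed within 0.10 of theirs. In Doxo+Cyta 20, DUSP6 stood 0.73 above, ETV4 0.63, DUSP5 0.46, DUSP4 0.37, SPRY2 0.23 and ETV5 0.21, and SPRED1, SPRED2 and PHLDA1 deviated by -0.50, -0.38 and -0.27. Both libraries that stood apart thus held more of DUSP6, ETV4 and ETV5 than the others of their groups. In Doxo+Cyta+DAC 30 all 9 tested members were below the group mean, with deviations from -0.22 (SPRED2 and SPRY2) to -0.73 (PHLDA1), and in Doxo+Cyta+DAC 31 ETV4 and PHLDA1 were both 0.85 above it. The 2 NT libraries differed little, with no member more than 0.18 from the mean. Each such deviation is of 1 library and carries no test.

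**Figure D3:**
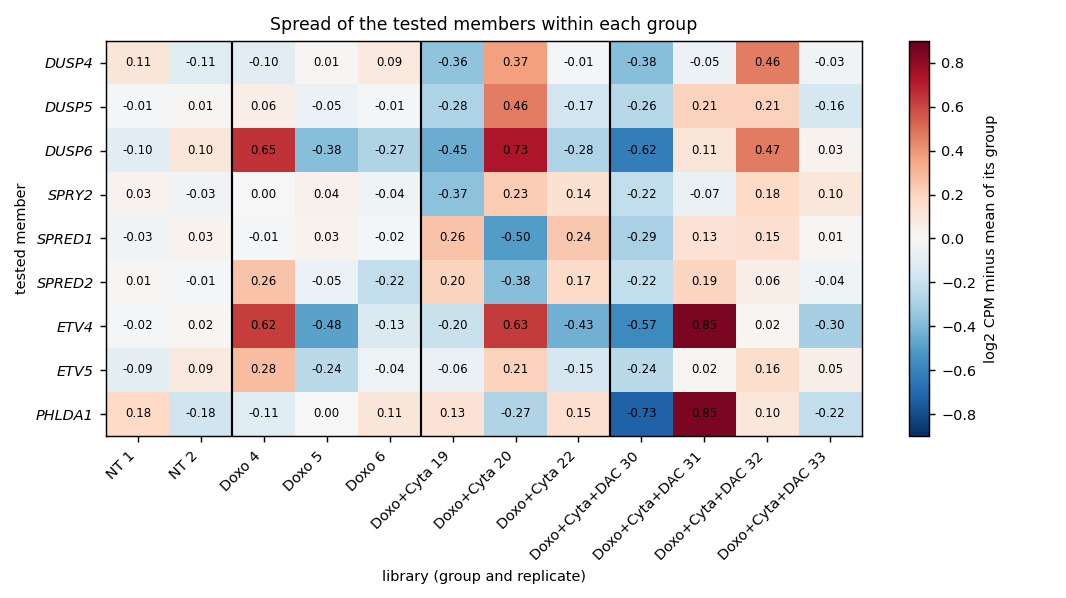
Deviation of each library from its group's mean (log2 CPM, colour and number) for the 9 tested members, with vertical lines between groups. DUSP6 and ETV4 are raised together in Doxo 4 (0.65 and 0.62) and Doxo+Cyta 20 (0.73 and 0.63), where SPRED1 is not.

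Leaving out both libraries that stood apart, a choice made after seeing the data, kept the 3 calls in Doxo over NT, where ETV4 joined them as lower, kept the 5 in Doxo+Cyta+DAC over NT and added PHLDA1 in Doxo+Cyta over NT (log2 1.38, adjusted p = 0.0472). In Doxo against Doxo+Cyta+DAC it added DUSP4 (0.57, adjusted p = 0.0394) and ETV4 (-0.88, adjusted p = 0.0214), and in Doxo over Doxo+Cyta it added SPRY2 (0.70, adjusted p = 0.027). In Doxo+Cyta against Doxo+Cyta+DAC it ended the DUSP4 call (0.38, adjusted p = 0.168).

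The other genes of the pathway were counted by list, to be read against the shares of all tested genes called in the same comparison. These shares were 6.06% higher and 4.63% lower in Doxo over NT and 0.911% higher and 0.551% lower in Doxo+Cyta over NT. In Doxo+Cyta+DAC over NT they were 24.9% higher and 23.7% lower. The cascade itself, 22 tested genes from RAS and its adaptors to ERK, had no call in Doxo or Doxo+Cyta over NT, and in Doxo+Cyta+DAC over NT 3 were higher and 6 lower (median -0.07). HRAS rose there (log2 1.29 ± 0.23, adjusted p = 0.000478), from a mean of 7.18 to 17.6 CPM. RRAS, a RAS relative, fell by 1.48 (adjusted p = 6.35e-05), from 48.8 to 17.6 CPM. MAPK3, which encodes ERK1, fell by 0.97 (adjusted p = 0.000113), from 33.3 to 17.1 CPM, and the scaffold gene KSR1 fell by 1.38 (adjusted p = 0.000198).

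Of the 7 other MAPK phosphatases, 3 were higher in Doxo over NT and 0 lower, and in Doxo+Cyta+DAC over NT 1 was higher and 3 lower (medians 0.68 and -0.21). DUSP1, the stress-induced nuclear phosphatase, rose in Doxo over NT (1.38 ± 0.19, adjusted p = 0.000979; 20.8 to 54.2 CPM) and fell by 0.46 in Doxo+Cyta+DAC over NT (adjusted p = 0.0373), a direction opposite to that of DUSP5. DUSP7, a cytoplasmic relative of DUSP6, fell by 0.79 in Doxo+Cyta+DAC over NT (adjusted p = 5.66e-05). DUSP8, which acts mainly on JNK and p38, was higher than in NT after doxorubicin alone (2.71 ± 0.50, adjusted p = 0.00641) and after all 3 drugs (1.74 ± 0.50, adjusted p = 0.0109), at means of at most 3.67 CPM. DUSP9 was called only in Doxo over Doxo+Cyta+DAC (0.96 ± 0.38, adjusted p = 0.0424).

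Of the 16 other tested Sprouty, Spred and RAS-inhibiting genes, 5 were higher and 5 lower in Doxo+Cyta+DAC over NT (median -0.10, beside 24.9% and 23.7% of all genes), and 1 was higher in Doxo over NT. PEBP1, the RAF inhibitor protein, rose in Doxo+Cyta+DAC over NT (0.90 ± 0.21, adjusted p = 0.00283), as did LZTR1, an adaptor for RAS degradation (0.65 ± 0.23, adjusted p = 0.0287). The RAS GTPase activator DAB2IP fell by 0.82 (adjusted p = 0.0457).

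Among 21 other tested ERK output genes, 4 were higher and 1 lower in Doxo over NT (median 0.31), 1 was higher in Doxo+Cyta over NT (0.05), and 4 were higher and 3 lower in Doxo+Cyta+DAC over NT (0.07). EGR1, an immediate early gene of ERK and SRF, fell by 2.14 in Doxo+Cyta+DAC over NT (adjusted p = 3.18e-05), from 247 ± 16.6 to 55.8 ± 7.32 CPM, against the direction of ETV5 and PHLDA1 in the same libraries. For EGR1 the Doxo relapses exceeded those of Doxo+Cyta+DAC by 3.05 (± 0.25, adjusted p = 6.38e-07). CXCL8, an inflammatory chemokine gene, rose in all 3 relapses over NT, from a mean of 1.38 CPM, by log2 4.29 ± 0.43 after doxorubicin alone (adjusted p = 0.000212), 2.28 ± 0.43 once cytarabine was added (adjusted p = 0.0276) and 2.41 ± 0.42 with all 3 drugs (adjusted p = 0.000388). ETV1, the remaining PEA3 factor, was under 1 CPM on average in every group and was called only in Doxo against Doxo+Cyta+DAC (-2.16 ± 0.84, adjusted p = 0.0393). The Doxo libraries held 1 to 3 ETV1 counts, at the floor of 3 counts, and Doxo+Cyta+DAC ranged from 0.315 to 1.65 CPM. KANK1 was also under 1 CPM on average in every group and rose in Doxo+Cyta+DAC over NT (2.39 ± 0.95, adjusted p = 0.0499). Its NT libraries held 1 to 4 counts, near the floor of 3 counts, and Doxo+Cyta+DAC ranged from 0.206 to 1.35 CPM.

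Of 12 ETS and CIC-related factors, 1 was higher in Doxo over NT (median 0.23), and 2 were higher and 1 lower in Doxo+Cyta+DAC over NT (-0.19). SRF, the partner of the ETS factors at immediate early genes, was the one in Doxo (1.03 ± 0.16, adjusted p = 0.00282) and was also higher in Doxo+Cyta+DAC (0.60 ± 0.15, adjusted p = 0.00504). ATXN1, which binds CIC, rose in Doxo+Cyta+DAC (2.25 ± 0.64, adjusted p = 0.0102) from low levels. ELK4 and ETV3 were called in Doxo over Doxo+Cyta+DAC (0.85 ± 0.24, adjusted p = 0.00692; 0.88 ± 0.27, adjusted p = 0.0135). Of 9 p38 and JNK pathway kinases, 0 were called in Doxo over NT and 2 were lower in Doxo+Cyta+DAC over NT (median -0.07). These were the p38 isoform gene MAPK13, which fell by 2.84 (adjusted p = 4.02e-06), and MAP2K7, which fell by 0.37 (adjusted p = 0.0166). Kinases of the same list were also called between relapses: MAP2K4 was lower (-0.64 ± 0.14, adjusted p = 0.00115) and MAPK10 higher (0.82 ± 0.33, adjusted p = 0.0461) in Doxo+Cyta than in Doxo+Cyta+DAC.

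In Doxo+Cyta over NT, CXCL8 was the only one of the 87 tested genes of these 6 lists to be called. Among all tested genes 0.911% were higher and 0.551% lower there. Between relapses, 34 of the 87 were higher and 14 lower in Doxo over Doxo+Cyta+DAC (median 0.30), and 28 were higher and 13 lower in Doxo+Cyta over Doxo+Cyta+DAC (median 0.03), where the members had 1 higher and 4 or 5 lower. Over all tested genes the shares in these comparisons were 30.4% higher and 29.1% lower, and 30.5% higher and 29.8% lower. In Doxo over Doxo+Cyta 6 were higher and 0 lower (median 0.11, beside 2.32% and 1.07% of all genes), among them DUSP1 (0.77 ± 0.16, adjusted p = 0.0186), EGR1 (1.61 ± 0.27, adjusted p = 0.00579), CXCL8 (2.01 ± 0.31, adjusted p = 0.00449) and SRF (0.93 ± 0.14, adjusted p = 0.00368), beside the member DUSP5.

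**Figure D4:**
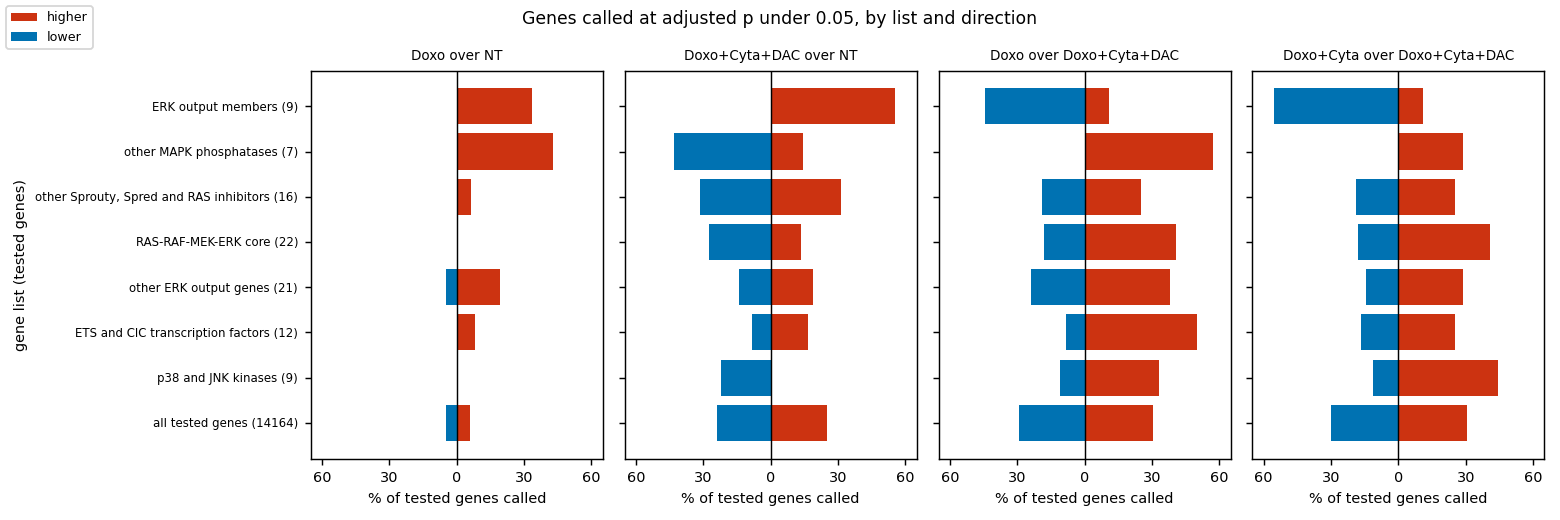
Share of tested genes (percent, bars) called higher (right of 0) or lower (left of 0) at an adjusted p under 0.05 in 4 comparisons, for the members, the 6 other lists and all tested genes, with the number tested in parentheses. In Doxo+Cyta+DAC over NT the members have 5 higher and 0 lower, beside 24.9% higher and 23.7% lower of all tested genes. Of the 6 other lists, 5 have calls in both directions. The lists differ in size, and the difference between them and the members was not tested.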

How the data were processed

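Bulk RNA of 12 libraries was analysed, and groups were taken from the sample labels. The authors deposited raw counts, the number of fragments over the exons of each gene, from featureCounts 1.6.0, without regard to strand, from Bowtie2 2.2.8 alignments to GRCh38, which do not split reads over exon junctions, after FastQC and fastx-toolkit steps. Chimeric fragments were left out. Whether fragments of several genomic positions were recognised is not given in the sources used here. Each column is 1 library, with none pooled. The other number deposited by the authors for each gene, its summed exon length, served for CPM per kb.

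Of 26485 genes, 4 lacked a count and were left out. edgeR 4.0.16 (R 4.3.3) was fitted to all 12 libraries with group as the only factor, TMM scaling and filterByExpr, and its quasi-likelihood test compared 6 pairs of groups, two-sided, with Benjamini-Hochberg adjustment over the 14164 genes tested. SE is the fold change divided by the square root of F, and 95% intervals use the t quantile of the fit. Log2 CPM used a prior count of 2. The counting floor was 3 counts per library. No libraries of a group were duplicates by a chi-square test of their counts. The code was tested on simulated data. Alternatives were RLE scaling, no filter, DESeq2 1.42.0, only the groups compared, a rule of adjusted p under 0.01 with a fold over 2, and each library left out in turn. Leaving out both libraries that stood apart was added after seeing the data. The series text speaks of 3 untreated replicates, and 2 are labelled. The labels give no batch and no replicate number shared between groups.

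The members, gene lists and tests were chosen with earlier results of these data known. All 10 members were named. From each other list up to 4 genes with the largest absolute fold change among those called in any comparison were named (a few genes are not reported here), and for each tested member the 2 other genes most alike over the 12 libraries. In the lists, SPRY4, RASAL1, KSR2, EPHA4, LZTS1 and MAP2K6 were too low to be tested and ZFP106 was not found under that symbol.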

Additional observations from a re-analysis of the deposited data

How the results depend on the processing

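Of 594 values of a member's fold change under an alternative, 540 kept their direction and their side of the threshold, 22 lost the call, 13 gained one and 19 changed sign. RLE scaling changed no call and no direction among its 54 values. The 5 calls of Doxo+Cyta+DAC over NT were 5 without any 1 library and 6 with no filter or with DESeq2, which then include SPRY4. Counts of called members that moved by more than 1.5 times were as follows. In Doxo over NT (3), 1 to 4 were called without 1 library, the 1 without NT 1 or NT 2 being DUSP5, and 1 under the stricter rule. In Doxo+Cyta over NT (0), 1 was called with no filter, 2 with DESeq2 and 1 without both libraries that stood apart. In Doxo over Doxo+Cyta+DAC (5), 3 were called under the stricter rule. In Doxo over Doxo+Cyta (1), 3 were called with DESeq2, 0 with only the groups compared, 0 to 2 without 1 library (0 without Doxo+Cyta 19) and 2 without both libraries. Signs changed only for values that were not called. Without 1 library the DUSP6 difference ranged from -0.55 to 0.13 in Doxo+Cyta over NT, from -0.21 to 0.13 in Doxo+Cyta+DAC over NT and from -0.49 to 0.19 in Doxo+Cyta over Doxo+Cyta+DAC. ETV4 in Doxo+Cyta over Doxo+Cyta+DAC ranged from -0.39 to 0.36 and ETV5 in Doxo+Cyta over NT from -0.03 to 0.20. In Doxo over Doxo+Cyta, DUSP4 ranged from -0.23 to 0.15, SPRED1 from -0.10 to 0.23 and ETV5 from -0.08 to 0.19. Without both libraries that stood apart, ETV5 in Doxo+Cyta over NT was -0.03, and in Doxo over Doxo+Cyta DUSP4 was 0.19 and SPRED1 -0.10. The cause of these changes was not tested.

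Counts over all tested genes, on which the background shares rest, moved more. Doxo over NT had 1515 called genes, 81 to 3137 without 1 library (lowest without NT 1, highest without Doxo 4), 5267 without both libraries and 220 under the stricter rule. Doxo+Cyta over NT had 207, with 0 to 226 without 1 library, 358 with no filter, 828 with DESeq2, 13 with only the groups compared, 2037 without both libraries and 0 under the stricter rule. Doxo over Doxo+Cyta had 481, with 130 to 877 without 1 library, 909 with DESeq2, 67 with only the groups compared, 1261 without both libraries and 53 under the stricter rule. Under the stricter rule Doxo+Cyta+DAC differed in 2293 genes from NT, 3064 from Doxo and 3300 from Doxo+Cyta. Where an NT library was left out, NT was a single library assumed to vary like the other groups. No paired analysis was possible because the groups share no replicate numbers. Depth limited SPRY4, with at most 9 counts per library.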

Other observations

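For each tested member, the genes outside the list whose log2 CPM was most like it over the 12 libraries are given with Pearson's r as a description, without a test. Several libraries belong to each group, and a high r can follow from the group means alone. SPRED1 was most like CTCF and LIN28B (r = 0.99 for both), and SPRED2 most like TRAPPC10 and DDX21 (0.98 for both). ETV5 was most like SOCS3 and MAK16 (0.98 for both), and PHLDA1 most like RGL1 and PPP2R2A (0.96 for both). DUSP5 was most like CDKN1A (0.97) and TIGAR (0.96). DUSP4 was most like PPP1R18 (0.96) and APLP1 (0.95). The members with few calls had weaker partners, DUSP6 with GPBAR1 (0.90) and NRARP (0.89) and SPRY2 with TP63 (0.88) and SUPT7L (0.87), whereas ETV4 had HSH2D at 0.96 and TUBAL3 at 0.91.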
